A study of Mus musculus with 9 samples.

Results

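Perforin (Prf1), the granzymes Gzma and Gzmb, Nkg7, the chemokines Ccl3 and Ccl4 and interferon gamma (Ifng) make up the equipment with which lymphocytes kill target cells and signal to the tissue around them. They were followed here as 7 of the 32286 genes in the feature table, found by their symbols, and the question was which cells of a mammary tumour carried their transcripts, since these cells are a possible source of interferon gamma. The tumours grew from 168FARN, a mouse mammary carcinoma line that carried an H2B-mCherry reporter, after injection into the mammary fat pad (MFP) of female BALB/c mice, the strain the line comes from. Whole-tumour suspensions gave 9 libraries, 3 from WT cells, 3 from Kmt2c KO cells and 3 from Kmt2d KO cells, the genes of a pair of histone H3 lysine 4 methyltransferases.

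The genotype is that of the injected cells, and no modification of the host mice was labelled, so the knockouts were not made in the immune cells described here. The knockouts were made with pooled guides against exon 1 and Cas9 and were kept as sorted populations, so the 3 tumours of a genotype do not repeat the making of the knockout. The age of the mice at harvest was not given in the labels. Libraries are numbered 1 to 3 within a genotype, in the order of the authors' aggregation table, and the numbers pair nothing.

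Cytotoxic lymphocytes store perforin and granzymes in granules and release them onto a target cell, where perforin opens the membrane and the granzymes, which are serine proteases, start cell death. NKG7 is a granule membrane protein that takes part in that release. CCL3 and CCL4 are chemokines that draw in other immune cells, and they are made both by activated lymphocytes and by macrophages. Interferon gamma is secreted by activated CD4 and CD8 T cells and by natural killer (NK) cells, and its receptor, found on most cells, turns on genes of antigen presentation and the guanylate-binding proteins. RUNX factors and the T-box factors T-bet and Eomes are known regulators of these genes.

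The windows before the gene starts are shown because these genes are known targets of the same lymphocyte regulators. They come from RefSeq (build GRCm38.p6, the assembly behind mm10), which held a window for 6 of the 7 genes, and the 250 bases before the start are given 5′ to 3′ on the gene's strand. Capitals mark the RUNX core TGTGGT and the T-box core TCACAC, searched on both strands (ACCACA and GTGTGA on the other), and the motifs did not overlap each other in any of these windows. The windows of Ifng (chr10:118440796-118441045, + strand), Prf1 (chr10:61297586-61297835, + strand), Gzmb (chr14:56262335-56262584, - strand) and Nkg7 (chr7:43436888-43437137, + strand) read as follows.
Ifng: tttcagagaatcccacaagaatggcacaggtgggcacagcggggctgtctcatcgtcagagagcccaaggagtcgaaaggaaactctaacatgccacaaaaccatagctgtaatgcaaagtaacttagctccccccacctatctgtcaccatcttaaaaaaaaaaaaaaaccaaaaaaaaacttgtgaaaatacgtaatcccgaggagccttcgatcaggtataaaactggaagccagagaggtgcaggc
Prf1: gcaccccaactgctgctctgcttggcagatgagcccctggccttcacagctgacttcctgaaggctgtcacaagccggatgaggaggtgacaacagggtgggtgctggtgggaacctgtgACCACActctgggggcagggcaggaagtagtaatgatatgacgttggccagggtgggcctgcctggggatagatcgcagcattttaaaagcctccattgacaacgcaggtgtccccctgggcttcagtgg
Gzmb: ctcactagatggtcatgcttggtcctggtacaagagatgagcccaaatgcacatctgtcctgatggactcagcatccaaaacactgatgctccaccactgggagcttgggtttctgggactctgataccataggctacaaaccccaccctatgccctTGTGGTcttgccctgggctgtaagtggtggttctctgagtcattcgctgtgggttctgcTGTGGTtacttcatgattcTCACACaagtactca
Nkg7: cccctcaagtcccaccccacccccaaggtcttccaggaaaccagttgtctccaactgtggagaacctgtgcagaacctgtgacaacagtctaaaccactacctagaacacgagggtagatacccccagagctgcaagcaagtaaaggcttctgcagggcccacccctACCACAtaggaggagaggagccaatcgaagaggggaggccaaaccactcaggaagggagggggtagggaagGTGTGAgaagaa

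The RUNX core was present in 5 of the 6 windows, against 14.0% of the 32851 RefSeq windows of the same length, and the T-box core in 2 of the 6, against 12.3%. Gzmb held 2 RUNX cores, starting 93 and 34 bases before the gene start, and a T-box core 15 bases before it. Nkg7 held 1 of each, at 83 and 12 bases. Prf1 held a RUNX core at 130 bases, Ccl3 at 122 and Gzma at 50, and neither motif stood in the Ifng window. In RefSeq the gene ranges themselves were chr10:118441046-118445894 for Ifng, chr10:61297751-61304684 for Prf1, chr13:113093824-113100981 for Gzma, chr14:56258836-56262334 for Gzmb and chr7:43437138-43438246 for Nkg7. The Prf1 window precedes a transcript start that lies inside that range. A match to 6 letters is a description of the sequence and does not show binding.

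The matrix held 89147 barcodes, of which 58645 were kept (over 500 but fewer than 7500 genes detected, and mitochondrial counts under 15%), 939 to 14525 per library. Immune cells were taken as kept cells with a Ptprc UMI (the gene of the leukocyte antigen CD45; a UMI is a unique transcript molecule) and no H2BMc (the reporter) or Krt8 UMI, which gave 1368 cells, and they were divided by a UMI of Cd3d, Cd3e or Cd3g into 275 CD3-positive and 1093 CD3-negative cells. Of the 9 fixed T cell markers 3 are the CD3 genes of the rule itself and check nothing. The other 6 were found in 13.5% to 53.1% of CD3-positive cells, where none of the 8 macrophage markers reached 10%. In CD3-negative cells all 8 macrophage markers lay between 22.8% and 54.2%, the 6 T cell markers outside the rule lay between 1.19% and 4.30%, and none of the NK markers passed 2.10%. Macrophage markers were thus the set found most often in CD3-negative cells, of which 583 fell in the macrophage gate described below. The targeted transcripts stayed detectable in H2BMc- or Krt8-positive cells without Ptprc (called tumour-type cells), with Kmt2c at 42.0 to 58.0 CPM (UMIs of the gene per 1000000 UMIs) in Kmt2c KO and 50.7 to 53.5 CPM in WT tumours, and Kmt2d at 24.7 to 33.0 CPM in Kmt2d KO and 17.2 to 22.2 CPM in WT tumours. Small deletions in exon 1 need not lower the transcript, so these levels do not check the labels. WT libraries gave 3109, 3835 and 3682 barcodes, with 38.1%, 62.1% and 25.5% kept, at median depths of 12858, 10471.5 and 13754 UMIs. Knockout libraries gave 9214 to 22929 barcodes, with 61.6% to 83.6% kept, at median depths of 2110 to 9197 UMIs. Barcodes over the mitochondrial limit were 50.7%, 26.6% and 68.5% in WT and 13.0% to 29.5% in knockout libraries. Library size and depth thus differed with genotype in comparisons with WT.

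CD3-positive cells were unevenly spread. WT tumours gave 8, 10 and 11, Kmt2c KO tumours 8, 130 and 46, and Kmt2d KO tumours 37, 8 and 17. Kmt2c KO library 2 therefore held 47.3% of all CD3-positive cells, and the pooled shares are also given without it. Among immune cells 2 barcode sequences occurred in more than 1 library. The CD3-positive share of immune cells was 11.1%, 13.3% and 11.8% in WT, 10.4%, 33.0% and 15.6% in Kmt2c KO and 24.5%, 8.60% and 14.3% in Kmt2d KO tumours, and the genotypes overlapped (Kruskal-Wallis statistic, exact permutation test, on shares at 1000 UMIs a cell, p = 0.829).

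Nkg7, Gzmb and Prf1 were the killing genes most often found in CD3-positive cells. Nkg7 was present in 110 of 275 cells (40.0%, exact 95% interval 34.2 to 46.1), Gzmb in 78 (28.4%, 23.1 to 34.1) and Prf1 in 39 (14.2%, 10.3 to 18.9). Gzma was nearly absent, with 3 UMIs in 3 cells (1.09%). In CD3-negative cells the same transcripts were found in 3.20% (Nkg7), 2.84% (Gzmb), 1.46% (Prf1) and 1.56% (Gzma) of 1093 cells. Intervals here and below cover counting error only.

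The chemokines and Ifng had another balance. Ccl4 was present in 15.3% of CD3-positive cells (42 cells, 516 UMIs) and in 10.2% of CD3-negative cells (111 cells, 391 UMIs), and Ccl3 in 9.09% and 4.39%. Ifng was present in 16 CD3-positive cells (5.82%, 3.36 to 9.28) and in 6 CD3-negative cells (0.549%, 0.202 to 1.19). Without Kmt2c KO library 2 the CD3-positive shares, over 145 cells, were 35.9% for Nkg7, 26.2% for Gzmb, 9.66% for Prf1, 13.8% for Ccl4, 7.59% for Ccl3, 4.14% for Ifng and 0.690% for Gzma (1 cell). That library thus raised the pooled share of each of these genes, most in percentage points for Prf1.

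**Figure D1:**
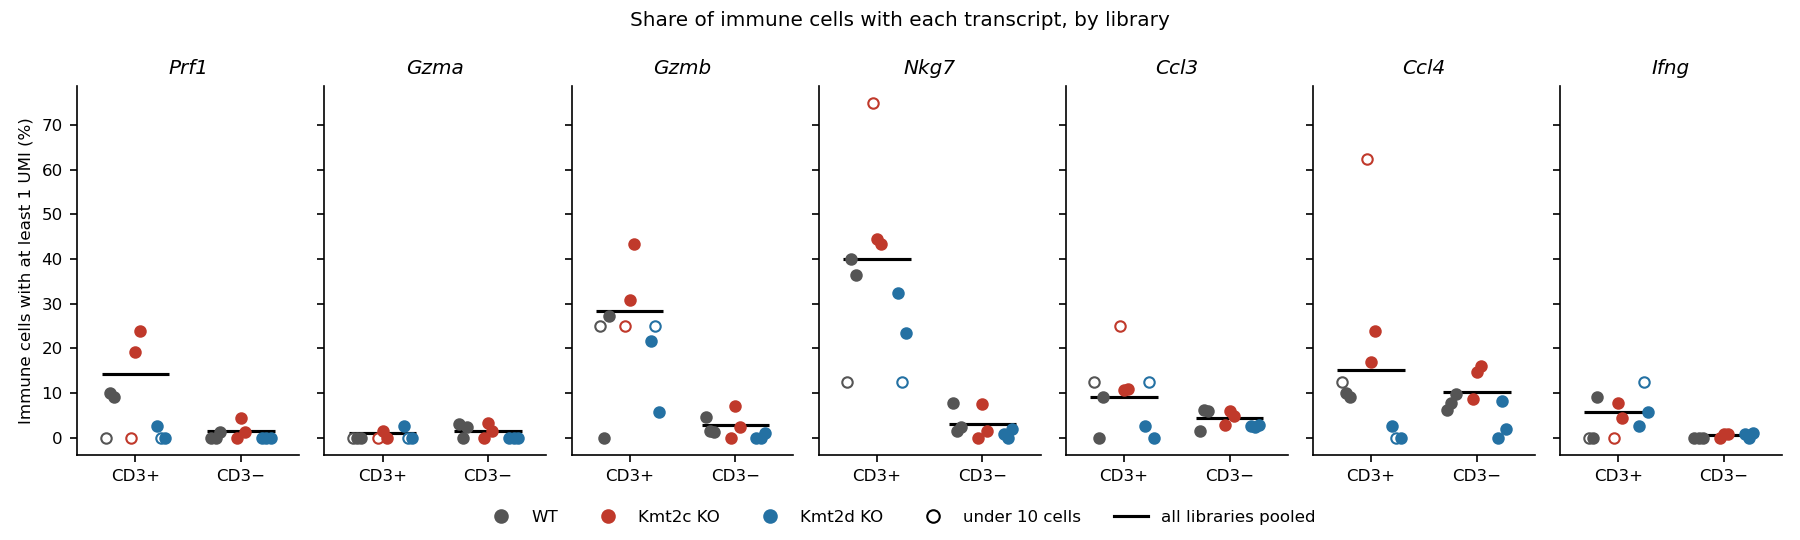
Percent of cells with each of the 7 transcripts in CD3-positive and CD3-negative immune cells, 1 point per library, by genotype. Libraries of 8 to 11 CD3-positive cells move in large steps (Ccl4 in 5 of 8 cells of Kmt2c KO library 1, Gzmb in 0 of 10 of WT library 2), and over all 9 libraries Nkg7 and Gzmb are most often found in CD3-positive and Ccl4 in CD3-negative cells.

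A share of cells with a transcript rises with depth, and CD3-positive cells were the shallower population, with a median of 1301 UMIs a cell against 2045 in CD3-negative and 10073.5 in tumour-type cells. Free RNA also gives UMIs in cells that do not express a gene. In 39556 tumour-type cells, taken as the comparison for free RNA, the shares were 0.0379% for Prf1, 0.0961% for Gzma, 0.149% for Gzmb, 0.116% for Nkg7, 0.0430% for Ccl3, 0.574% for Ccl4 and 0.0430% for Ifng, so that every share in both immune populations stood above that of tumour-type cells, although these were deeper. For Ccl4, whose level in tumour-type cells varied between libraries (0.119 to 2.78 CPM), this share is not read as free RNA alone. In 964 cells of the endothelial gate Ifng was not found, which allows a share of up to 0.311%. With each cell thinned to 1000 UMIs (193 CD3-positive and 935 CD3-negative cells, with 82 and 158 shallower cells left out), the shares in CD3-positive and CD3-negative cells were 36.8% and 2.15% for Nkg7, 22.7% and 1.59% for Gzmb, 13.3% and 0.763% for Prf1, 14.6% and 6.30% for Ccl4, 8.07% and 2.20% for Ccl3, 4.09% and 0.376% for Ifng and 0.661% and 0.535% for Gzma.

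Within libraries the CD3-positive share of Nkg7 exceeded the CD3-negative share by 28.5 ± 12.9 percentage points (SD, n = 5 libraries with at least 10 thinned cells in each population) and that of Gzmb by 18.2 ± 13.9 points, in 5 of 5 libraries for both (two-sided exact sign-flip permutation test, p = 0.0625, the smallest that 5 libraries allow). The difference was 9.08 ± 9.54 points for Prf1 (4 of 5 libraries, exact p = 0.125), 3.12 ± 3.16 for Ifng (4 of 5, exact p = 0.1875), 4.58 ± 4.72 for Ccl4 and 3.61 ± 3.47 for Ccl3 (4 of 5, exact p = 0.125 each). Gzma did not differ beyond its spread, at 0.0597 ± 1.70 points. Without thinning, 6 libraries could be used and Nkg7 was higher in 6 of 6 by 34.1 ± 7.09 points (exact p = 0.03125).

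Counts summed per library gave levels rather than shares. Over the 6 libraries with at least 10 cells in each population, with the library as a block, edgeR tested 3833 genes and called 12.1% of them higher and 18.4% lower in CD3-positive cells. Only Nkg7, Ccl3 and Ccl4 passed the filter on low counts, which Nkg7 could do through the CD3-positive sums alone, so their count is not a result about the 7 genes. They were called higher by 4.995 ± 0.33 (SE, log2 scale, adjusted p = 1.05e-14), 2.27 ± 0.39 (adjusted p = 1.44e-05) and 2.25 ± 0.34 (adjusted p = 1.40e-06). Prf1, Gzma, Gzmb and Ifng did not pass the filter. With no filter, edgeR gave 3.72 ± 0.43 for Prf1, 3.52 ± 0.37 for Gzmb and 5.12 ± 0.54 for Ifng, all called, and -2.57 ± 0.77 for Gzma (adjusted p = 0.0082), the only member that was lower in CD3-positive cells. The Ifng value rested in part on 1 cell, which held 130 of the 159 Ifng UMIs of CD3-positive cells, and without it edgeR gave 3.29 ± 0.64 (adjusted p = 6.06e-06), still called. DESeq2 gave Gzma 0.05 (adjusted p = 0.993) and did not call Ccl3 (1.40, adjusted p = 0.143).

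The levels of Nkg7 are given for all 9 libraries, of which the first of WT, the first of Kmt2c KO and the second of Kmt2d KO were too small for the fit. In CD3-positive cells Nkg7 stood at 463.5, 1064 and 396 CPM in WT, 1208, 948 and 903 CPM in Kmt2c KO and 495, 69.2 and 275 CPM in Kmt2d KO tumours, while in CD3-negative cells it ran from 0 to 55.8 CPM. The 2 populations did not overlap in any library, although 69.2 CPM in Kmt2d KO library 2 came from 1 of 8 cells. For Nkg7, Ccl3 and Ccl4, the members that could be tested, the CD3 effect was not called different between genotypes (0% of 3833 genes for either knockout against WT and 0.13% for Kmt2d KO against Kmt2c KO, edgeR interaction terms), and the widest estimate against WT, for Ccl3 in Kmt2c KO, was 2.63 ± 1.17 with an adjusted p of 0.855. At an unadjusted p under 0.05 these 3 terms held 212, 182 and 207 genes.

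The immune cells were next placed in 6 gates by the transcripts of surface markers. CD3-positive cells held 52 with a Cd8a or Cd8b1 UMI, 80 with a Cd4 UMI and no Cd8 UMI, and 143 with neither. CD3-negative cells held 46 with an NK gene UMI (Ncr1, Klrb1c or Klre1), 583 with a macrophage gene UMI (Csf1r, C1qa, C1qb or Adgre1) and no NK gene UMI, and 464 others. Their median depths were 1353, 1407.5, 1187, 1321.5, 2468 and 1484 UMIs, in that order. A cell with no Cd8 or Cd4 UMI can belong to either lineage at this depth.

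Prf1 was concentrated in the CD8 gate. It was found in 22 of 52 cells (42.3%, 46 UMIs), against 5.0% in the CD4 gate, 9.09% in the other CD3-positive cells, 13.0% in the NK gate and 0.343% in the macrophage gate. Nkg7 followed a like order, with 69.2% in the CD8 gate, 39.9% in the other CD3-positive cells, 34.8% in the NK gate, 21.2% in the CD4 gate and 0.515% in the macrophage gate. The CD8 gate rested on few libraries: Kmt2c KO libraries 2 and 3 held 33 and 11 of its 52 cells, with Prf1 in 15 of 33 and 7 of 11, and WT tumours held 0, 2 and 1 CD8-gate cells.

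Gzmb was spread over the T cell gates, at 40.4% of CD8-gate, 31.2% of CD4-gate and 22.4% of other CD3-positive cells, against 17.4% of NK-gate and 0.686% of macrophage-gate cells. Gzma was the reverse. It was not found in the CD8 or CD4 gates (upper bounds of the exact 95% intervals 6.85% and 4.51%), and 8 of 46 NK-gate cells (17.4%) held 45 of its UMIs, at 451 CPM. A single cell of Kmt2c KO library 2 held 26 of these, and without it 19 UMIs in 7 cells were left, at 193 CPM. Gzma is abundant in resting NK cells and in some effector CD8 T cells, and here it lay with the NK gate, which WT tumours filled with 7, 0 and 3 cells, Kmt2c KO tumours with 1, 19 and 9 and Kmt2d KO tumours with 2, 1 and 4.

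Ccl4 was found in every gate, from 19.2% in the CD8 gate and 16.2% in the CD4 gate to 13.0% in the NK gate, 12.2% in the macrophage gate and 7.33% in the other CD3-negative cells. Ccl3 ran from 11.2% in the CD4 gate to 1.94% in the other CD3-negative cells, with 5.83% in macrophages. Ifng was found in 6 of 52 CD8-gate cells (11.5%, 10 UMIs), 6 of 80 CD4-gate cells (7.5%, 143 UMIs), 4 of 143 other CD3-positive cells (2.80%), 1 of 46 NK-gate cells (2.17%), 0.172% of macrophage-gate cells and 0.862% of the other CD3-negative cells. The counts behind the last 4 shares are too small to order them.

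**Figure D2:**
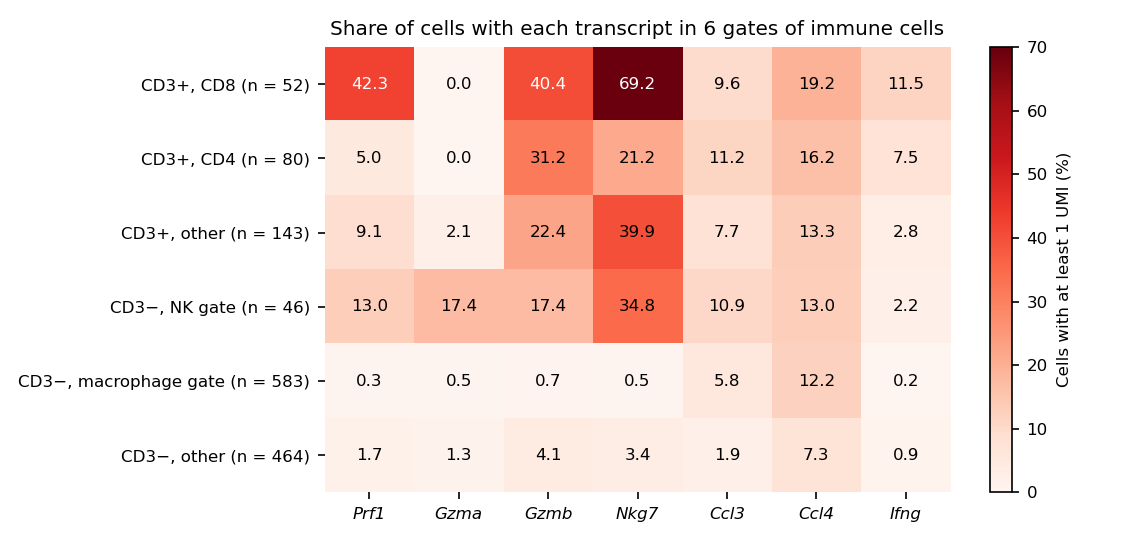
Percent of cells with each transcript in the 6 gates, pooled over 9 libraries, printed without intervals. Prf1 and Nkg7 peak in the CD8 gate (42.3% and 69.2%), Gzma in the NK gate (17.4%), and Ccl4 lies between 7.33% and 19.2% in every gate.

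The CD3-positive cells also carried regulatory T cell markers, with 3 of 3 fixed markers in 29.8% to 55.3% of cells, and Foxp3, the defining factor of regulatory T cells, divided the members (a division chosen after the gate values were seen). Of 82 cells with a Foxp3 UMI (median depth 1636.5 UMIs), 30 held Gzmb (36.6%, 26.2 to 48.0) and 8 held Prf1 (9.76%, 4.31 to 18.3). Of 49 cells with a Cd8 UMI and no Foxp3 UMI (median depth 1355), 20 held Gzmb (40.8%, 26.997 to 55.8) and 21 held Prf1 (42.9%, 28.8 to 57.8). Genotype was uneven between the sets, with 45 of the 82 Foxp3 cells and 43 of the 49 Cd8 cells from Kmt2c KO tumours, which gave all 20 Gzmb-positive and all 21 Prf1-positive Cd8 cells. Within Kmt2c KO tumours Gzmb was in 44.4% (29.6 to 60.003) and 46.5% (31.2 to 62.3) of the Foxp3 and Cd8 sets and Prf1 in 13.3% (5.05 to 26.8) and 48.8% (33.3 to 64.5). These pooled cells are not replicates and the difference between the sets was not tested. Over all genotypes Nkg7 was found in 30.5% and 73.5% of these sets, Ccl4 in 17.1% and 20.4%, Ccl3 in 12.2% and 10.2%, Gzma in 0 cells of either (upper bounds of the exact 95% intervals 4.40% and 7.25%), and Ifng in 3 cells (3.66%) and 6 cells (12.2%), where the intervals of Ifng overlapped.

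Where the transcripts lay in the whole suspension was a separate question, since immune cells were few. CD3-positive cells were 0.469% of kept cells and 0.0846% of their UMIs, and they held 55.2% of all Nkg7 UMIs, 50.9% of Ccl3, 47.8% of Prf1, 42.0% of Gzmb, 22.6% of Ccl4 and 2.16% of Gzma UMIs. A further 20.1% of Nkg7, 21.4% of Prf1 and 17.2% of Gzmb UMIs lay in cells with a CD3 UMI but no Ptprc, H2BMc or Krt8 UMI, which the rule leaves out. Gzma had 45.3% of its UMIs in CD3-negative cells and 28.1% in tumour-type cells. Ccl4 had the largest part in tumour-type cells, 28.5% (650 UMIs in 227 cells, of which 1 cell held 52). Its level in tumour-type cells was 0.119, 0.457 and 0.134 CPM in WT, 1.48, 2.78 and 2.26 CPM in Kmt2c KO and 0.223, 2.38 and 0.641 CPM in Kmt2d KO tumours, so that the Kmt2c KO libraries and Kmt2d KO library 2 stood above the other 5. A test by genotype was not made on these levels.

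**Figure D3:**
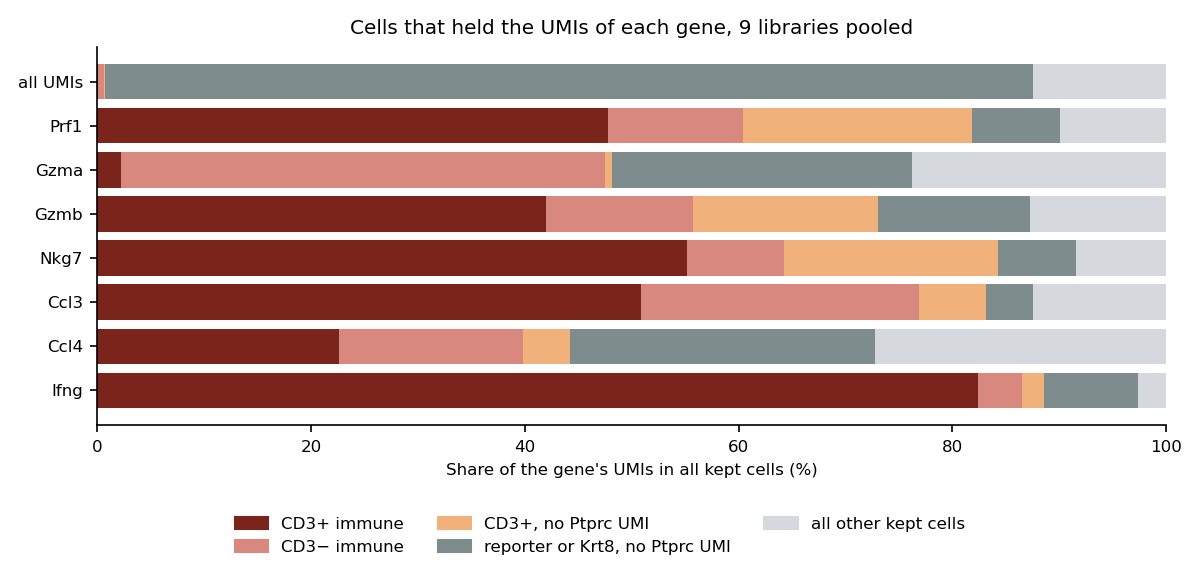
Percent of each gene's UMIs found in each class of kept cells, all 9 libraries summed. CD3-positive cells, 0.469% of the cells, hold 82.4% of Ifng UMIs and 2.16% of Gzma UMIs.

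Ifng was found in the fewest cells of the 7, and most of its UMIs lay in 1 of them. Over 58645 kept cells it gave 193 UMIs in 46 cells, and CD3-positive cells held 159 of them (82.4%), CD3-negative cells 4.15% and tumour-type cells 8.81%. A single CD3-positive cell of Kmt2c KO library 2, with Cd4 and no Cd8 or Foxp3 UMI and a depth of 4158, held 130 Ifng UMIs together with 103 Ccl3, 81 Ccl4, 28 Nkg7 and 2 Tbx21 UMIs, and no Prf1 or Gzmb. Without that cell 63 Ifng UMIs were left in 45 cells, of which CD3-positive cells held 29 (46.0%), CD3-negative cells 8 (12.7%) and tumour-type cells 17 (26.98%), the last as 1 UMI in each of 17 cells. The level in CD3-positive cells fell by this step from 346 to 63.7 CPM, against 2.67 CPM in CD3-negative cells.

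The other Ifng-positive cells held few molecules each. The next highest were a CD4-gate cell of Kmt2d KO library 2 with 7 UMIs, and a CD8-gate cell of Kmt2c KO library 2 with 4 Ifng, 67 Ccl4 and 11 Ccl3 UMIs. By library, CD3-positive cells with Ifng numbered 0 of 8, 0 of 10 and 1 of 11 in WT, 0 of 8, 10 of 130 and 2 of 46 in Kmt2c KO, and 1 of 37, 1 of 8 and 1 of 17 in Kmt2d KO tumours. The pooled shares were 3.45%, 6.52% and 4.84%, and their counts do not separate the genotypes. In CD3-negative cells of WT tumours Ifng was not found in 211 cells, which allows a share of up to 1.42%.

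The members were found together in some cells more often than in others, which is given as a description, since deeper cells show more of every gene. Of 39 Prf1-positive CD3-positive cells 33 also held Nkg7 (84.6%, against 32.6% of the Prf1-zero cells) and 19 held Gzmb (48.7% against 25.0%), at median depths of 1493 and 1235.5 UMIs. Of 25 Ccl3-positive cells 21 held Ccl4 (84.0% against 8.40%). The RefSeq ranges of Ccl3 and Ccl4 (chr11:83647843-83649378 and chr11:83648624-83664683) overlap by 755 bases, and the effect of this on their levels was not tested. Ifng-positive cells held Prf1 in 3 of 16 (18.8% against 13.9%) and Gzmb in 4 of 16 (25.0% against 28.6%), although their median depth was 2635.5 UMIs against 1258. Of the 275 cells 109 (39.6%) held none of the 7 transcripts, 85 held 1 and 1 cell held 6, and of the CD3-negative cells 82.7% held none.

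The genotypes of the tumour were compared in the CD3-positive cells of the 6 libraries with at least 10 such cells (WT 2 and 3, Kmt2c KO 2 and 3, Kmt2d KO 1 and 3). Between the 2 knockouts Ccl4 was lower in Kmt2d KO tumours, and Ccl3 was called lower too, a call that was lost without 1 cell. Both could pass the filter on low counts only through Kmt2c KO, where they are high, so their calls in the filtered fit are not independent of that choice. Ccl4 stood at 1323 and 1915 CPM in Kmt2c KO libraries 2 and 3 (22 of 130 and 11 of 46 cells) whereas Kmt2d KO libraries 1 and 3 gave 30.0 and 0 CPM (1 of 37 and 0 of 17 cells). The groups did not overlap, and edgeR called the difference at -6.25 ± 0.82 (log2 scale, adjusted p = 0.0004). With no filter, over 12701 genes, it was also called (-6.25 ± 0.83, adjusted p = 5.56e-10, 0.150% of genes called). That fit shared its estimate of spread with many genes of very few UMIs. Its smaller adjusted p came with nearly the same estimate and SE. It is therefore not read as a stronger result, and this holds for every fit with no filter. Kmt2d KO tumours gave only 2 Ccl4 UMIs in the libraries of the fit against 419, a ratio of UMI shares of 0.0144 (exact counting interval 0.00173 to 0.0522).

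Ccl3 gave 764.5 and 342.5 CPM in the same Kmt2c KO libraries, whereas the Kmt2d KO libraries gave 60.01 and 0 CPM, a difference of -3.84 ± 0.76 (adjusted p = 0.0258 by edgeR, and 1 by DESeq2, which therefore did not call it). The cell with 130 Ifng UMIs held 103 of the 171 Ccl3 UMIs of Kmt2c KO library 2 (60.2%). Without it, an alternative added after the data were seen, that library stood at 309.8 CPM and the difference was no longer called by edgeR (-3.04, adjusted p = 0.193), while Ccl4, with 979 CPM left in that library, still was (-6.08, adjusted p = 0.000689). With all cells these were 2 of 3 genes called among 1083 tested (0.277%), and DESeq2 called 1, Ccl4 (adjusted p = 0.0024). Prf1 (-3.30 ± 0.89, adjusted p = 0.213), Gzmb (-1.997 ± 0.68, adjusted p = 0.412) and Nkg7 (-1.27 ± 0.51, adjusted p = 0.716) had the same sign and were not called. Prf1 and Gzmb, too, could pass the filter on low counts only through Kmt2c KO, so their sign is not independent of that choice. With no filter Prf1 (adjusted p = 0.0423) and Ifng (adjusted p = 0.00138) were called lower by edgeR as well. Without the filter and without the cell with most Ifng UMIs, Prf1 (adjusted p = 0.0409) and Ccl4 (1.98e-09) were called, and Ifng (-1.49, adjusted p = 0.942) and Ccl3 (0.0509) were not. Markers of several cell types moved with this contrast. The fixed CD8 markers summed to 376 and 327 CPM for Kmt2c KO against 75.0 and 34.4 CPM for Kmt2d KO, and the sum of the macrophage and monocyte markers was 809 and 358 CPM (16.2% and 32.6% of cells) against 45.0 and 0 CPM (5.41% and 0% of cells). NK markers summed to 107 and 109 CPM against 45.0 and 0 CPM. Regulatory T cell markers went the other way, at 1949 and 2211 CPM (61.5% and 63.0% of cells) against 3001 and 4266 CPM (78.4% and 88.2%). The markers listed as innate lymphoid (Il7r, Rora, Gata3 and Il1rl1) did so too, at 398 and 638 CPM against 735 and 1101 CPM. All of these cells held a CD3 UMI, so NK and innate lymphoid here name marker lists and not cell types. With the 21 CD3-positive cells that held a Csf1r, C1qa, C1qb or Adgre1 UMI left out, which left 5 libraries in the fit, the differences were -5.83 for Ccl4 (adjusted p = 3.85e-05 by edgeR) and -3.73 for Ccl3 (adjusted p = 0.0190). With all 43 cells left out that held a UMI of any of the 8 macrophage and monocyte markers, added after the data were seen, Ccl4 was at -5.81 (adjusted p = 5.47e-08 by edgeR) and Ccl3 was called too (adjusted p = 9.62e-08), with no Ccl3 UMI left in the 2 Kmt2d KO libraries of the fit and the cell with most Ifng UMIs still in the fit, and the part of the CD8, NK, regulatory T and innate lymphoid cells in the result was not tested. Libraries left out of the fit for their size widen the range, since Kmt2c KO library 1 gave Ccl4 at 6645 CPM in 5 of 8 cells and Kmt2d KO library 2 gave 0 of 8.

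No gene was called between either knockout and WT in the filtered fit of CD3-positive cells, where 0% of 1083 genes were called for Kmt2c KO (48 at an unadjusted p under 0.05 by edgeR, and 0 called by DESeq2) and 0% for Kmt2d KO (58 at an unadjusted p under 0.05, and 0 called by DESeq2). For Kmt2c KO against WT the estimates were 3.58 ± 0.91 for Ccl3 (adjusted p = 0.159), 2.71 ± 0.64 for Ccl4 (adjusted p = 0.115), 2.61 for Prf1, 2.36 for Gzmb and 0.52 for Nkg7. They rest on 21 WT cells, which held 2 Ccl3, 11 Ccl4 and 2 Prf1 UMIs. Ccl3, Ccl4, Prf1 and Gzmb could pass the filter only through Kmt2c KO, where they are high. Their filtered estimates are not independent of that choice. With no filter edgeR called both Ccl3 (4.01, adjusted p = 0.00630) and Ccl4 (3.09, adjusted p = 0.00281), and without the cell with most Ifng UMIs as well only Ccl4 (2.90, adjusted p = 0.00794; Ccl3 0.200). Leaving out Kmt2d KO library 1 or 3 also changed the call, with Ccl3 and Ccl4 both called. Such fits kept 1 Kmt2d KO library, and Ccl3 could again pass the filter only through Kmt2c KO. For Kmt2d KO against WT, Ccl4 was at -3.55 ± 1.07 (adjusted p = 0.697) and the other 4 tested members between -0.75 and 0.36.

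Prf1 and Gzmb in the single libraries show how little the WT tumours contributed. Prf1 was found in 0 of 8, 1 of 10 and 1 of 11 WT cells, 0 of 8, 25 of 130 and 11 of 46 Kmt2c KO cells and 1 of 37, 0 of 8 and 0 of 17 Kmt2d KO cells. Gzmb was found in 2, 0 and 3 WT cells, 2, 40 and 20 Kmt2c KO cells and 8, 2 and 1 Kmt2d KO cells of the same totals. Pooled by genotype, Prf1 was in 6.90%, 19.6% and 1.61% of CD3-positive cells and Gzmb in 17.2%, 33.7% and 17.7% (WT, Kmt2c KO and Kmt2d KO). On shares at 1000 UMIs the genotype test had 5 libraries (1 WT, 2 Kmt2c KO, 2 Kmt2d KO) and could not go below an exact p of 0.2, which 6 of the 7 members reached.

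In CD3-negative cells all 9 libraries entered the fit, and of the members only Ccl4 passed the filter on low counts. It stood at 60.6, 82.9 and 47.3 CPM in WT, 88.6, 256.5 and 232 CPM in Kmt2c KO and 0, 65.5 and 21.9 CPM in Kmt2d KO tumours. The lowest Kmt2c KO library was above the highest WT library, by little, and Kmt2d KO overlapped with WT. By edgeR the differences were 1.72 ± 0.52 for Kmt2c KO against WT (adjusted p = 0.0955, where 2.69% of 5651 genes were called, 1.84% higher and 0.849% lower), -0.98 ± 0.67 for Kmt2d KO against WT (adjusted p = 0.802, 0% called, 417 genes at an unadjusted p under 0.05 and 0 called by DESeq2) and -2.70 ± 0.56 for Kmt2d KO against Kmt2c KO (adjusted p = 0.0935, 0.0177% called).

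The share of CD3-negative cells with Ccl4, at 1000 UMIs a cell, was 3.58%, 3.72% and 6.13% in WT, 6.50%, 9.84% and 10.2% in Kmt2c KO and 0.00% (0 of 114 cells at full depth, which allows a share of up to 2.63%), 3.61% and 1.23% in Kmt2d KO tumours. The 3 Kmt2c KO libraries were the highest, and the genotypes differed by the exact permutation test (p = 0.0107, unadjusted, with 7 members tested). At full depth the shares were 6.25%, 7.69% and 9.76% in WT, 8.70%, 14.8% and 16.1% in Kmt2c KO and 0%, 8.24% and 1.96% in Kmt2d KO tumours (exact p = 0.0857), so the result depended on thinning. The other 6 members gave exact p-values from 0.154 (Gzmb) to 1 (Prf1). Cell composition differed too. The macrophage gate held 35 of 64, 36 of 65 and 55 of 82 CD3-negative cells in WT tumours. It held 39 of 69, 131 of 264 and 159 of 248 in Kmt2c KO tumours. In Kmt2d KO tumours it held 48 of 114, 40 of 85 and 40 of 102. The part of this composition in the Ccl4 shares was not tested.

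Over whole tumours, all kept cells summed, 16590 genes including all 7 members were tested and no member was called by edgeR. In such sums fewer cells of a type and less RNA per cell cannot be told apart. For Kmt2c KO against WT 15.3% of genes were called (7.32% higher, 7.99% lower), and the members lay at 3.49 ± 1.37 for Prf1 (adjusted p = 0.117), 2.49 ± 1.42 for Ifng (adjusted p = 0.273), 2.27 ± 0.75 for Ccl4 (adjusted p = 0.0710), 2.04 ± 0.88 for Ccl3 (adjusted p = 0.150) and between 0.48 and 1.24 for the rest. DESeq2 called Prf1 (adjusted p = 0.0419) and Ccl4 (adjusted p = 0.0356). For Kmt2d KO against WT (4.03% called, 1.13% higher and 2.9% lower) the members lay between -1.19 and 0.71, and for Kmt2d KO against Kmt2c KO between -3.64 and -1.57 (0% called by edgeR, 2366 genes at an unadjusted p under 0.05 and 474 called by DESeq2).

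**Figure D4:**
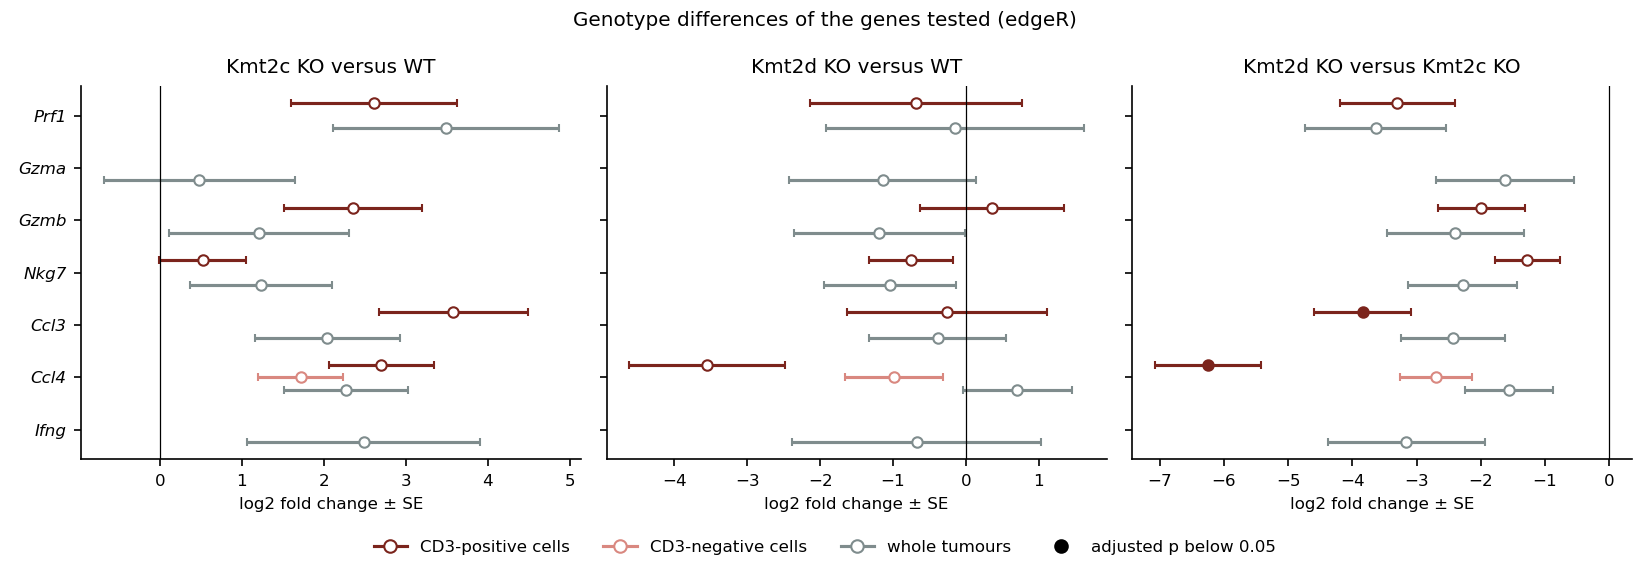
Fitted log2 differences of the members with standard errors for the 3 genotype contrasts in CD3-positive cells, CD3-negative cells and whole tumours (edgeR), with filled points for adjusted p under 0.05. Ccl3 and Ccl4 in CD3-positive cells, Kmt2d KO against Kmt2c KO, are the only filled points, and the Ccl3 call is lost without 1 cell (adjusted p = 0.193).

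Ifng and Prf1 in whole tumours were led by 1 or 2 libraries. Ifng stood at 0.0541, 0.105 and 0.242 CPM in WT, 0.0214, 1.91 and 0.162 CPM in Kmt2c KO and 0.0466, 0.105 and 0.0801 CPM in Kmt2d KO tumours. The high value is Kmt2c KO library 2, which held 154 Ifng UMIs, or 24 without its leading cell, and the other 8 libraries overlapped between genotypes. Prf1 stood at 0, 0.0351 and 0.182 CPM in WT, 0.0427, 1.48 and 0.679 CPM in Kmt2c KO and 0.0932, 0.0750 and 0.0178 CPM in Kmt2d KO tumours. Kmt2c KO libraries 2 and 3, which gave 130 and 46 CD3-positive cells, were above all others for Prf1, and Kmt2c KO library 1, with 8 such cells, was not.

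The other genes of the pathway were 61 in 4 fixed lists. Of 24 granule and killing genes 8 were tested between CD3-positive and CD3-negative cells, and 4 were higher and 2 lower, where 12.1% of all genes tested were higher and 18.4% lower. Cst7 (cystatin F, an inhibitor of the proteases that activate granzymes) was higher by 3.40 and Unc13d (a granule priming factor) by 1.93, while Ctsc, the cathepsin that activates progranzymes and is also abundant in macrophages, was lower by 3.69 and the lysosome protein gene Lamp1 by 2.30, all with edgeR adjusted p under 0.05. The median over the list was 0.44, against -0.09 over all 3833 genes. Between genotypes none of the granule genes was called in CD3-positive (3 tested), CD3-negative (8 tested) or whole-tumour counts (18 tested).

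Among 15 inducers and regulators of Ifng 5 were tested between the populations, and 3 were higher and 1 lower (12.1% and 18.4% of all genes tested). The limit of the filter given above holds for this list and for the chemokines. The interleukin-18 receptor genes Il18r1 (2.75) and Il18rap (1.81) and Stat4 (2.25), which carries the interleukin-12 signal, were higher in CD3-positive cells, and Il15, a cytokine that macrophages present to lymphocytes, was lower (-3.04). Il18rap was not called by DESeq2. In whole tumours of Kmt2c KO against WT, Il15 (1.42) and Il12rb1 (1.14), an interleukin-12 receptor subunit, were higher and Il12a (-3.26), the p35 subunit of interleukin-12, was lower at a very low level, out of 13 tested (7.32% of all genes tested were higher and 7.99% lower). Of the 6 other chemokines and receptors 3 were tested between the populations and 2 were lower in CD3-positive cells, where 18.4% of all genes tested were, among them the macrophage chemokine Ccl9 (-4.58). Ccl9 was also lower in Kmt2c KO than in WT CD3-negative cells (-1.71, adjusted p = 0.0118 by edgeR).

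The 16 genes of the interferon gamma receptor and response were all tested between the populations, with 3 higher (12.1% of all genes tested were) and 7 lower (18.4%) in CD3-positive cells. H2-Aa (-6.38), a major histocompatibility class II gene, its activator Ciita (-5.25), the receptor subunit Ifngr2 (-3.83) and the chemokine Cxcl9 (-3.61) were lower in CD3-positive cells. In CD3-negative cells of Kmt2c KO against WT tumours 5 of the 16 were higher (1.84% of all genes tested were), among them the guanylate-binding protein Gbp2 (2.61 ± 0.55, adjusted p = 0.0207), the GTPase Iigp1 (2.47 ± 0.59, adjusted p = 0.0331), the feedback inhibitor Socs1 (1.63 ± 0.35, adjusted p = 0.0207) and the transcription factor Irf1 (1.48 ± 0.27, adjusted p = 0.0117), and the median of the list was 1.28, against -0.01 over 5651 genes. DESeq2 did not call Iigp1. Tumour-type cells carried the same transcripts and moved the same way. Gbp2 stood at 30.3, 55.3 and 81.9 CPM in CD3-negative and 54.6, 59.7 and 79.0 CPM in tumour-type cells of WT tumours, and at 360, 336 and 366 CPM and 349, 447 and 607 CPM in Kmt2c KO tumours. Irf1 was higher in CD3-negative than in tumour-type cells in all 9 libraries (82.9 to 339 against 45.0 to 177 CPM), and Iigp1 in most. Socs1 and Gbp2 were lower in CD3-negative cells in most libraries, as with Socs1 in WT library 1 (30.3 against 88.4 CPM). CD3-negative cells of Kmt2d KO library 2 were high too, with Gbp2 at 352 and Iigp1 at 283 CPM. Kmt2d KO libraries 1 and 3 gave 74.5 and 58.5 CPM for Gbp2 and 70.8 and 69.5 CPM for Iigp1. The part of free tumour-cell RNA in the CD3-negative values was not tested. In whole tumours 8 of the 16 were higher in Kmt2c KO, against 7.32% of all genes tested (Iigp1 3.39, Gbp2 2.87, Gbp4 2.74; list median 1.43), and none of the 16 was called in whole tumours of Kmt2d KO against WT (median 0.59). In CD3-positive cells 7 of the 16 could be tested between genotypes, and none of these 7 was called.

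The level of response genes in tumour-type cells was set beside the Ifng transcript in each library. The sum of 12 response genes, with Irf1, Gbp2 and Psmb8 among them, was 417, 413 and 532 CPM in WT, 1640, 2007 and 2328 CPM in Kmt2c KO and 533, 1781 and 555 CPM in Kmt2d KO tumours. All 3 Kmt2c KO libraries and Kmt2d KO library 2 were high, and the other 5 libraries were low, the same division of libraries as for Ccl4 in tumour-type cells. Ifng UMIs over all kept cells numbered 1, 3 and 4 in WT, 2, 154 and 10 in Kmt2c KO and 3, 7 and 9 in Kmt2d KO tumours. Kmt2c KO library 1 and Kmt2d KO library 2 had high sums, 8 CD3-positive cells each and 2 and 7 Ifng UMIs. Kmt2d KO library 1 had a low sum, 37 CD3-positive cells and 3 Ifng UMIs. The relation of the sums to these cells and UMIs was not tested. The cell and UMI numbers are raw counts, and libraries held 939 to 14525 kept cells. CD3-positive cells were 0.0677% of kept cells in Kmt2c KO library 1 and 0.114% in Kmt2d KO library 2. They were 0.675% in WT library 1, which also gave 8. The Ifng UMIs of WT libraries 1 and 2 were single UMIs in tumour-type cells, and those of Kmt2c KO library 1 lay outside the immune gate. Outside Kmt2c KO library 2 no library held more than 10 Ifng UMIs, and all 7 of Kmt2d KO library 2 lay in 1 CD4-gate cell. These libraries do not measure the interferon gamma protein, and which interferon, if any, acted on the 12 genes was not tested.

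**Figure D5:**
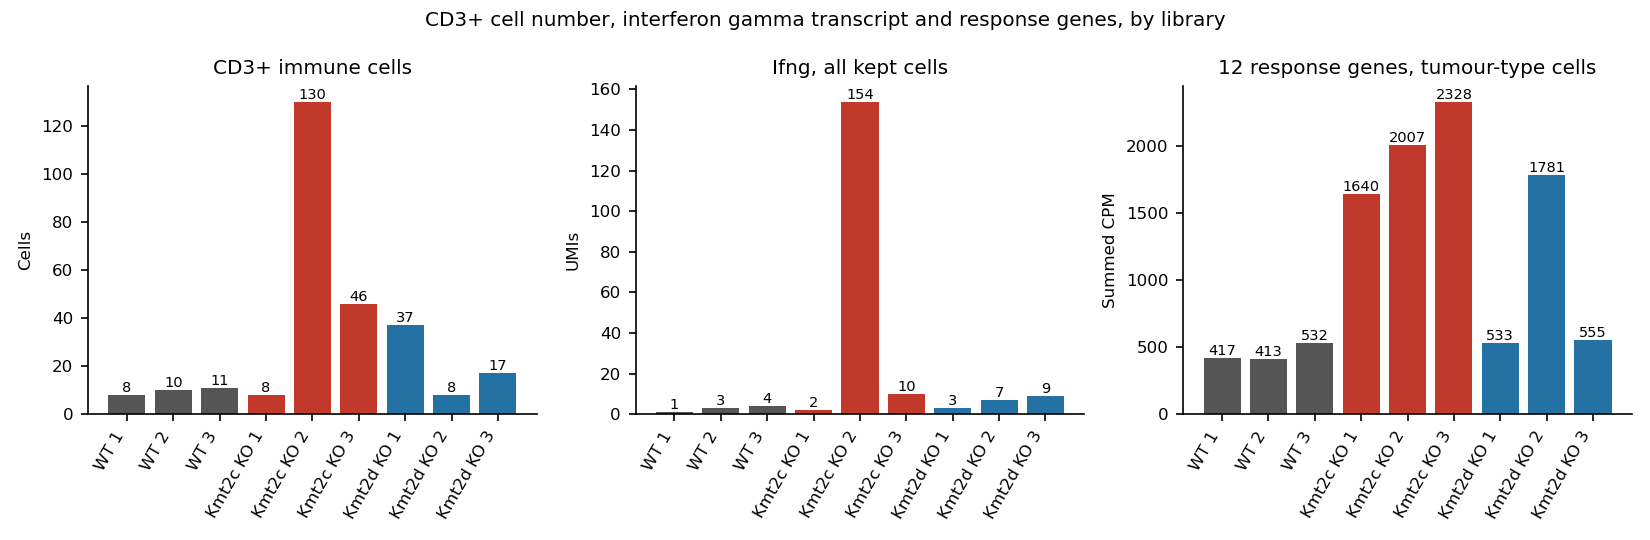
CD3-positive cells, Ifng UMIs over all kept cells and the summed CPM of 12 response genes in tumour-type cells, 1 bar per library. Cells and UMIs are raw counts, not scaled to library size, and their relation to the sums was not tested. Kmt2c KO library 1 and Kmt2d KO library 2 have 8 CD3-positive cells each and response sums of 1640 and 1781 CPM, and 154 of the Ifng UMIs are in Kmt2c KO library 2.

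Genes whose level varied like Ifng and Prf1 were ranked by Pearson's r of log2(CPM + 10) over 18 units, the 6 gates in each of the 3 genotypes, with the cells of a genotype pooled (3 to 329 cells a unit). For Prf1 the leading genes were Adora2a (r = 0.87), an adenosine receptor, Tbx21 (0.83), the gene of T-bet, Gbp6 (0.83), Ccl4 (0.81) and Pcmtd2 (0.79). For Ifng they were Lgals7 (0.81), Sdf4 (0.77), E330009J07Rik (0.77), Cluap1 (0.77) and Ccr8 (0.76), a chemokine receptor of tumour T cells. The units share libraries and differ in depth and cell number, and the cell with 130 Ifng UMIs sits in 1 of them, so these values describe likeness over few cells.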

How the data were processed

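Whole-tumour suspensions were sequenced with the 10x Genomics 5′ HT v2 kit. The authors made the deposited matrix, whole-number UMI counts per gene and barcode, with Cell Ranger 7.0.1 (count and aggregation) and, per the submitters' processing notes, build mm10. The annotation release, and whether aggregation equalised depth, were not given in the sources used. The genotype of each library was read from the letter in the authors' aggregation table (X for WT, C for Kmt2c KO, D for Kmt2d KO). Which library is which replicate number in the labels is not stated, and the labels give replicates by number only, without naming separate mice, so p-values measure the spread between these samples.

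The members, gates and lists were chosen with earlier results of these data known. Every value here was computed from the deposited counts: shares of cells with at least 1 UMI, with exact (Clopper-Pearson) 95% intervals, and, where a count is 0, the share that 3 counts would give. Depth was 3109 to 22929 barcodes per library before filtering. The filter on cells took the limits in the study's methods and removed 705 barcodes of the immune gate, 617 with too few genes and 263 over the mitochondrial limit (175 met both). Shares at 1000 UMIs are expectations over all draws of 1000 UMIs from each cell that has as many, with gates set at full depth. Counts summed per library, for libraries with at least 10 cells, were tested with edgeR 4.0.16 (filterByExpr, TMM, quasi-likelihood, Benjamini-Hochberg over all genes tested, called at an adjusted p under 0.05) in R 4.3.3, with all 3 genotypes in 1 fit. The step was also run on counts simulated with the same spread for every gene, which does not cover sums led by single cells. Shares were compared with exact permutation tests in SciPy 1.17.1, unadjusted. Alternatives were DESeq2 1.42.0, no filter on low counts, each library left out, all barcodes, other minima of cells, Cd3e alone, no thinning or thinning to 2000 UMIs, and removal of CD3-positive cells with macrophage UMIs or of the cell with most Ifng UMIs. No doublet caller was run: 43 of 275 CD3-positive cells held a UMI of the 8 macrophage and monocyte markers, 21 of them of Csf1r, C1qa, C1qb or Adgre1 (each set was left out in turn), and 246 Ptprc-positive cells with H2BMc or Krt8 stayed out of the gates. The rule for named genes took all 7 members, some of which are given as a range, and up to 4 other genes of a list, those with the largest change among the called. Some genes of the lists are not reported here.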

Additional observations from a re-analysis of the deposited data

Results flagged for a closer look

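Cells with a CD3 UMI and no Ptprc, H2BMc or Krt8 UMI lay outside the rule and entered no comparison of CD3-positive or CD3-negative cells. As kept cells they were part of the whole-tumour sums. Among 95 such cells of Kmt2c KO tumours 27 held Gzmb (28.4%, exact 95% interval 19.6 to 38.6), against 0 of 15 in WT tumours, which allows a share of up to 20.0% (upper bound of the exact 95% interval 21.8%), and 4 of 48 (8.33%) in Kmt2d KO tumours. By library these were 0 of 7, 19 of 68 and 8 of 20 cells in Kmt2c KO, 0 of 4, 0 of 7 and 0 of 4 in WT and 3 of 20, 1 of 10 and 0 of 18 in Kmt2d KO tumours. The exact intervals of Kmt2c KO and WT overlapped, pooled cells are not replicates, and the difference was not tested. In the same 95 cells Nkg7 was found in 33.7% and Prf1 in 15.8%, at a median depth of 1263 UMIs against 1228 in the WT cells.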

How the results depend on the processing

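No paired analysis was possible because the libraries cannot be matched to the replicate numbers of the labels, so the only block used was the library itself, between CD3-positive and CD3-negative cells. The counts of called genes moved with several settings. With no filter on low counts, Kmt2c KO against WT, Kmt2d KO against WT and Kmt2d KO against Kmt2c KO gave 17, 2 and 19 genes in CD3-positive and 562, 164 and 156 in CD3-negative cells, the whole-tumour comparison of the knockouts gave 13, and CD3-positive against CD3-negative cells gave 2207. With neither the filter nor the cell with most Ifng UMIs the 3 CD3-positive comparisons gave 17, 2 and 18 and the last 2113. DESeq2 gave 1 gene for Kmt2d KO against Kmt2c KO in CD3-positive and 10 in CD3-negative cells, and in whole tumours 1366 for Kmt2d KO against WT and 474 for Kmt2d KO against Kmt2c KO. In CD3-positive cells, all barcodes gave 4 genes and a minimum of 5 cells (added after the data were seen) 2 for Kmt2c KO against WT, and for Kmt2d KO against Kmt2c KO a minimum of 20 cells gave 22, a minimum of 5 cells 1 leaving out cells with a Csf1r, C1qa, C1qb or Adgre1 UMI 7 and leaving out those with any macrophage or monocyte marker (added after the data were seen) 10. The cause of these changes was not tested. Leaving out the cell with most Ifng UMIs (also added after the data were seen) gave 2 genes in place of 3 for Kmt2d KO against Kmt2c KO in CD3-positive cells and lost the Ccl3 call.

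Leaving out 1 library at a time gave 0 to 20, 0 to 2 and 3 to 16 genes for the same 3 comparisons in CD3-positive cells, 18 to 285, 0 to 39 and 0 to 118 in CD3-negative cells, 1238 to 3922, 299 to 975 and 0 to 2086 in whole tumours, and 761 to 1234 for CD3-positive against CD3-negative cells. Single libraries decided some counts: 20 genes without Kmt2d KO library 3, 10 without Kmt2d KO library 1, 6 without Kmt2c KO library 2 and 5 without Kmt2c KO library 3 (Kmt2c KO against WT, CD3-positive cells), 39 without Kmt2d KO library 1 (Kmt2d KO against WT, CD3-negative cells), and 118 (CD3-negative cells) and 2086 (whole tumours) without Kmt2d KO library 2 for the knockouts against each other. The exact p of the CD3-positive share of immune cells ran from 0.357 to 0.896. Without thinning 1 member passed the test of CD3-positive against CD3-negative shares instead of 0, and without thinning or at 2000 UMIs 0 members instead of 1 passed the genotype test in CD3-negative cells, where 1 member, Ccl4, passed with each library left out (exact p at most 0.0321). Among 584 values of single genes 549 stayed on their side of the threshold, 7 were no longer called, 28 were newly called and 0 were called in the other direction, and 24 of the 549 changed sign without a call. Fits of CD3-positive cells against WT with at least 20 cells or with Cd3e alone were not run because too few libraries were left. The genotype test of CD3-positive shares at 2000 UMIs was not run for the same reason. The CD3-positive comparisons with WT had 21 WT cells in the fit.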

Other observations

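Barcodes that the filter on cells removed also held these transcripts. Among 96 removed CD3-positive barcodes Nkg7 was found in 17.7%, Gzmb in 13.5%, Prf1 in 2.08% and Ifng in 2.08%.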
